A study of Mus musculus with 97 samples.

Results

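Light digestion with micrococcal nuclease (MNase) was compared between mitotic and interphase mouse embryonic stem (ES) cells, as the positions of the released DNA fragments around 7 sets of genomic sites. The light digestion is the lowest of 3 MNase concentrations, labelled 0.5 beside 16 and 128 with no unit, and covers 6 of the 97 libraries of the series, 3 from each state. Its profiles were taken from the authors' table of averaged profiles as every row of MNase-seq at 0.5, which gave 28 of 188 rows. These rows hold a smoothed curve and the values per base (fragment midpoints) for both states at each of the 7 sets.

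The study examined transcription factor binding, chromatin accessibility and nucleosome positions in ES cells in interphase and in mitosis. The cells were the line E14tg2a (labelled Tg2a), grown on gelatine with serum and leukaemia inhibitory factor (LIF). Mitotic cells had received nocodazole, a drug that blocks spindle assembly, at 50 ng/ml for 4 to 5 h, and were then shaken off and passed through a 10 µm filter. Interphase cells were not treated, and were lifted with trypsin and collected at the same time. The state therefore goes together with nocodazole and with the way of collection, and these cannot be told apart. No RNA was measured in these libraries, so the ES cell label was not checked against marker genes. The labels do not say whether the 3 libraries of a state came from separate cultures.

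MNase cuts the DNA between nucleosomes, the particles of DNA wrapped around histone proteins, so the middle of a fragment that survives lies near the middle of what protected it. Over many aligned sites, evenly spaced nucleosomes give a wave of maxima and minima on both sides of the centre, and a light digestion also keeps particles that a heavier one destroys. In mitosis chromosomes condense and most transcription stops, and many transcription factors leave the DNA. A factor that stays on its sites is said to bookmark them.

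The 7 sets fall into 5 site classes. EP300 summits are peaks of a histone acetyltransferase found at active enhancers. Transcription start sites are where genes begin to be read. Esrrb, an orphan nuclear receptor of the ES cell network, has a class of bookmarked sites, centred on its motif, and a class of sites lost in mitosis, which is given 3 times, centred on the Esrrb motif, on the Oct4/Sox2 motif and on the peak summit. Oct4/Sox2 sites, centred on the motif of this pair of pluripotency factors, are the last class. Neither the positions of the sites nor their number or sequences are in the sources used here, so no sequence is shown. All 7 sets were read from the same libraries, and the 3 centrings of lost Esrrb sites are not independent of each other.

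Every value is from 1 profile that the authors pooled over the 3 libraries of a state. There is no value per library, so there is no replicate error and no test, and the differences are given as descriptions of these 2 pools. The depth behind the profiles is unknown. The deposited scale is not stated, and values are printed as the deposited value times 10000. Where a value is in percent of the far flank, it was divided by the mean of the same profile from 800 to 1000 bp on both sides. The scatter of single positions around the smoothed curve had an SD of 0.279 to 0.436 over the 14 profiles, or 3.75% to 6.46% of the mean. That scatter is between positions of 1 pool, and is no replicate error.

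**Figure D1:**
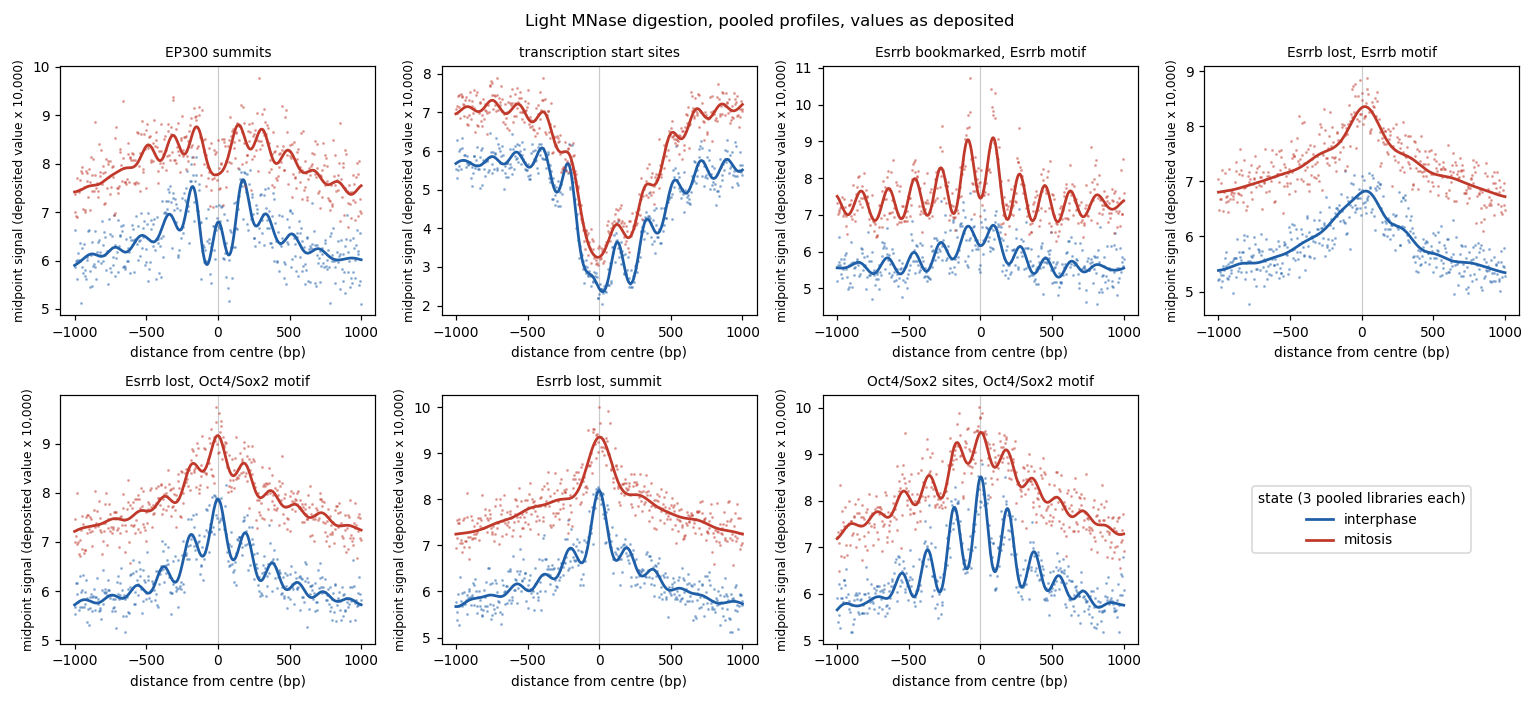
Light-digestion profiles at the 7 sets of sites: distance from the centre in bp against the deposited value times 10000, with lines for the authors' smoothed curve and points for the values per base at steps of 5 bp. Axes differ between panels and do not start at 0. The mitotic line lies above the interphase line at every position in every panel, and at EP300 summits an interphase central maximum of 6.80 faces a mitotic minimum of 7.77.

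The mitotic profiles lay higher across the whole window. At all 7 sets, the mitotic curve was above the interphase curve at 2001 of 2001 positions. In the far flank, the interphase level was 5.44 to 6.05 and the mitotic level 6.83 to 7.51. Mitosis over interphase there was lowest at EP300 summits, at 1.24, and highest at bookmarked Esrrb sites, at 1.31. The order of the states was the opposite at the 2 higher concentrations, where the same ratio was 0.763 to 0.850 at 16 and 0.758 to 0.811 at 128. After light digestion followed by pulldown of histone H3 (MNase-H3 at 0.5, 2 libraries a state), the ratio was 1.10 to 1.17. Since the states differ in the far flank too, the shapes below are given mostly on the percent scale.

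Within 50 bp of the centre, the mitotic level was 1.15 times the interphase level at Oct4/Sox2 sites and 1.32 times at transcription start sites, with the other 5 sets between. Set against each profile's own far flank, the centre was lower in mitosis at 6 of the 7 sets. Oct4/Sox2 sites had the widest difference, from 140% of the far flank in interphase to 126% in mitosis. Summits of lost Esrrb sites went from 137% to 127%, and their Oct4/Sox2 motifs from 132% to 123%. Bookmarked Esrrb motifs went from 112% to 107%, EP300 summits from 109% to 104%, and Esrrb motifs of lost sites from 125% to 122%. Transcription start sites were the exception, at 44.6% in interphase and 46.8% in mitosis. With the far flank subtracted in place of divided by, the mitotic centre was lower at start sites too, by a difference of -0.656, and higher at Esrrb motifs of lost sites, by 0.131. The direction of the central difference thus turned at each of the 7 sets under at least 1 of these 2 scalings, and under both at the other 5. The other digestions did not all follow. Mitosis minus interphase, in percentage points of the far flank, ran from -14.6 to 2.22 in the light digestion and from -5.81 to 4.94 at 16. It ran from -0.156 to 30.9 at 128 and from -3.16 to 6.43 in MNase-H3 at 0.5, lowest at bookmarked Esrrb motifs in these 3. Oct4/Sox2 sites went from 91.9% to 114% at 128, from 108% to 113% in MNase-H3, and stayed at 117% at 16.

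**Figure D2:**
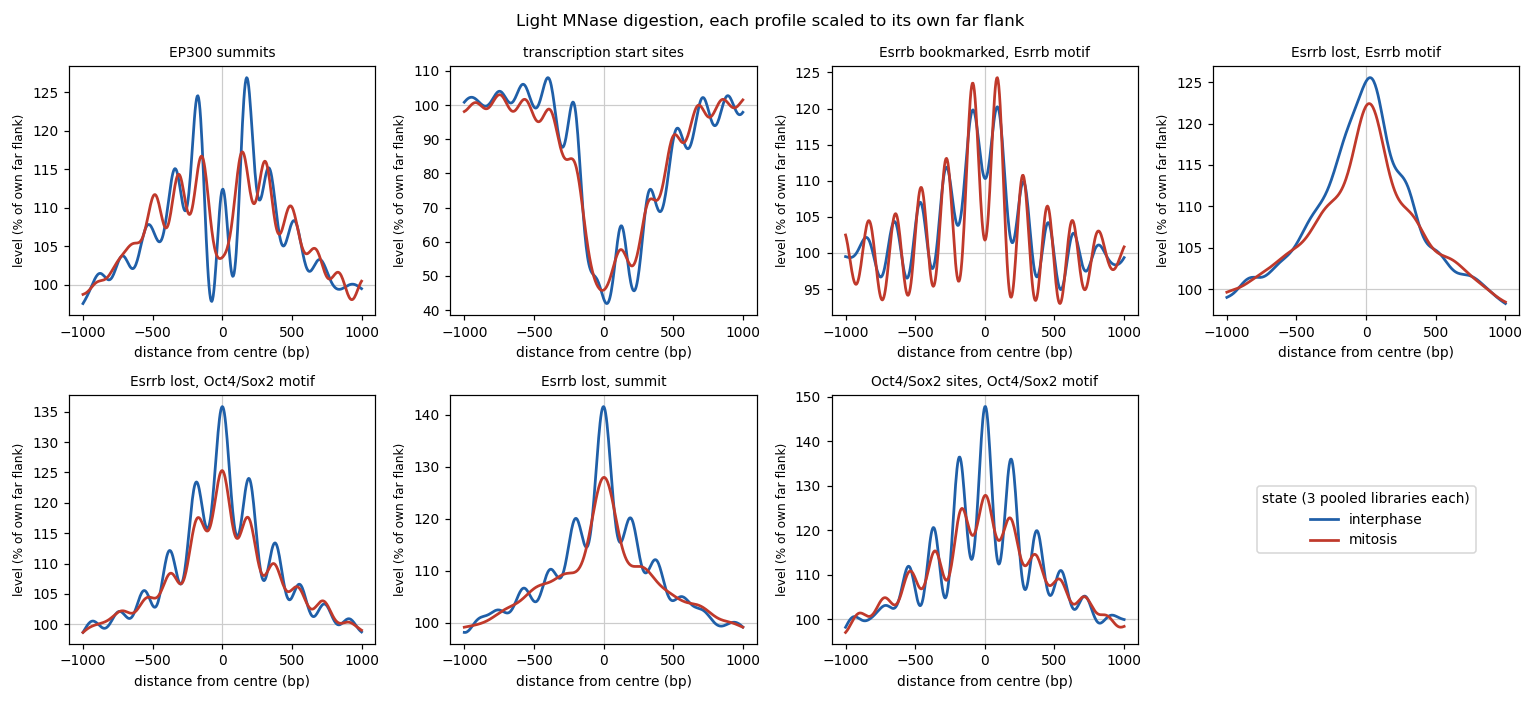
The same smoothed curves in percent of each profile's own far flank (800 to 1000 bp), against distance from the centre in bp, interphase in blue and mitosis in red. The wave is flatter in mitosis at Oct4/Sox2 sites (centre 148% in interphase, 128% in mitosis) and deeper at bookmarked Esrrb motifs, where the first maximum on the right stands at 120% and 124%.

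At EP300 summits the light digestion gave a different shape in each state. In interphase a narrow central maximum, 6.80 at position 4, stood between minima of 5.92 at -76 and 6.11 at 76. The first flanking maxima were at -177 and 176, at 7.53 and 7.67. In mitosis no central maximum was present. The curve had a single minimum of 7.77 at -17 there, between maxima of 8.77 at -149 and 8.81 at 144. The 2 first flanking maxima were therefore 353 bp apart in interphase and 293 bp apart in mitosis. In percent of the far flank, these maxima stood at 125% and 127% in interphase and at 117% in mitosis on both sides. Of 6 flanking maxima whose height above the neighbouring minima could be compared, 2 were taller in mitosis in percent of the far flank and 4 on the deposited scale.

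The shift was not limited to the first pair. All 8 flanking maxima that could be matched by side and order lay nearer to the summit in mitosis, by a median of 30 bp. The smallest shift was 26 bp. The widest, 105 bp, joins a maximum at 935 with one at 830, and rests on order alone. The ratio of mitosis to interphase ran from 1.12 at 188, on the interphase maximum, to 1.37 at -90, near the interphase minimum. Across positions the 2 curves had Pearson's r = 0.801, the lowest of the 7 sets, and 0.561 within 500 bp, as a description over neighbouring positions of 2 pools.

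In the other digestions the first flanking maxima were paired by order alone, and whether they are the same maxima was not tested. At 16 they were 344 bp apart in interphase (-172 and 172) and 199 bp in mitosis (-98 and 101). At 128 the order was the opposite, with 330 bp in interphase and 539 bp in mitosis (-265 and 274). In MNase-H3 at 0.5 they were 368 bp apart in interphase and 322 bp in mitosis. There neither state had a central maximum, and the centre was at 59.2% of the far flank in interphase and 65.6% in mitosis. The interphase central maximum of the light digestion thus had no counterpart in the H3 pulldown of the same concentration. At 16, as in the light digestion, a central maximum was present in interphase and absent in mitosis. At 128 the mitotic profile had a central maximum, with 134% of the far flank within 50 bp, against 103% in interphase.

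**Figure D3:**
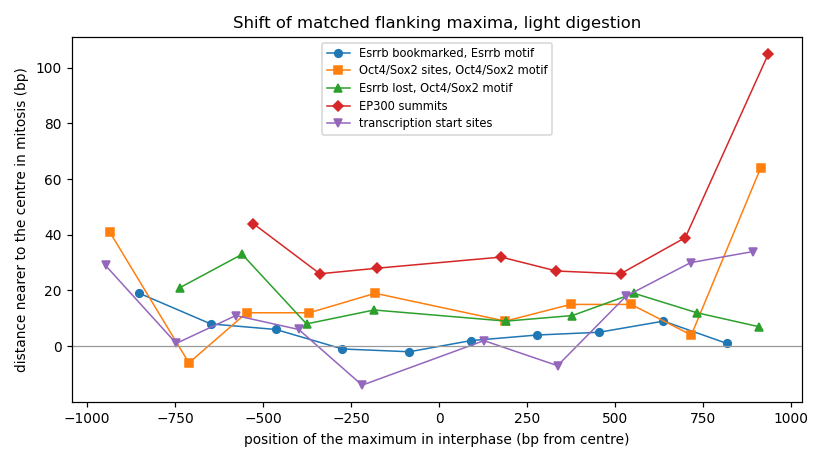
Shift of each flanking maximum matched by side and order: its interphase position in bp from the centre against how many bp nearer to the centre it lay in mitosis (negative values lie farther out). Each point is 1 maximum of a pooled smoothed curve. All 8 points of EP300 summits are at 26 bp or more, while those of bookmarked Esrrb motifs lie between -2 and 19 bp.

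Bookmarked Esrrb motifs had a deeper wave in mitosis than in interphase. Both states had a minimum at the motif, 6.16 at position 3 in interphase and 7.45 at position 1 in mitosis. The first maxima lay at -85 and 90 in interphase and at -87 and 88 in mitosis, 175 bp apart in both. What differed was their height. Measured above the mean of the 2 neighbouring minima, the first maximum on the left was 12.8% of the far flank in interphase and 24.6% in mitosis, and on the right 14.4% and 26.5%.

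All 10 matched maxima at these motifs were taller in mitosis, on the deposited scale and in percent of the far flank alike. The outermost pair, at -852 and 817 in interphase, went from 4.14% to 9.91% and from 3.19% to 6.76%. Positions changed little, with a median of 4.5 bp nearer to the motif in mitosis and a range of -2 to 19 bp. Neighbouring maxima were a median of 186 bp apart in interphase and 184 bp in mitosis, over 8 distances in each. The distances ran from 177 to 203 bp in interphase and from 176 to 192 bp in mitosis. Only 1 interphase distance, between the outermost maxima on the left at -852 and -649, was longer than the longest mitotic one. The wider interphase range rests on it.

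Oct4/Sox2 sites had a deep interphase wave that was shallower in mitosis. A maximum lay on the motif in both states, 8.51 at position 3 in interphase and 9.47 at position 4 in mitosis. Its height above the neighbouring minima was 35.0% of the far flank in interphase and 9.61% in mitosis. The first flanking maxima, at -182 and 188, stood 27.4% and 26.5% above their minima in interphase. Those of mitosis, at -163 and 179, stood 11.1% and 7.96% above theirs. Of 9 maxima whose height could be compared, 1 was taller in mitosis, the fourth on the left.

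Matched maxima lay nearer to the motif in mitosis for 9 of 10, with a median of 13.5 bp. The exception was again the fourth on the left, 6 bp farther out. The first pair was 370 bp apart in interphase and 342 bp in mitosis, while the median distance between neighbours was 181.5 bp and 178.5 bp. The ratio of mitosis to interphase was lowest on the motif itself, 1.11 at position 2, and highest in a trough, 1.35 at position 290.

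**Figure D4:**
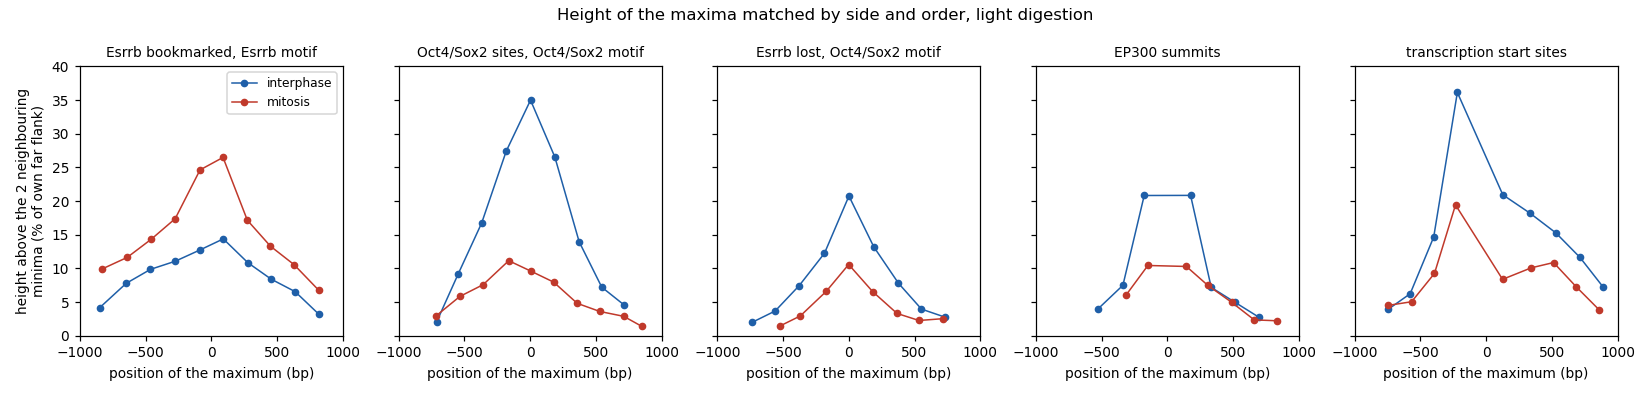
Height of each matched maximum above the mean of its 2 neighbouring minima, in percent of the profile's far flank, against its position in bp, at 5 of the 7 sets. Each point is 1 maximum of a pooled smoothed curve. The mitotic points lie above the interphase points throughout at bookmarked Esrrb motifs (26.5% against 14.4% for the first on the right) and far below them at the centre of Oct4/Sox2 sites (9.61% against 35.0%).

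Esrrb sites lost in mitosis looked different under each centring. On the Oct4/Sox2 motif, a central maximum of 7.87 in interphase and 9.16 in mitosis stood 20.7% and 10.6% of the far flank above its minima. The first flanking maxima were at -185 and 190 in interphase and at -172 and 181 in mitosis. All 9 matched flanking maxima lay nearer in mitosis, by a median of 12 bp, and 0 of 8 heights were taller in percent of the far flank, and 1 on the deposited scale. The direction of these differences is that of Oct4/Sox2 sites, at a smaller size.

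On the peak summit of the same sites, the smoothed curve had 9 maxima in interphase and 2 in mitosis. The central maximum was 8.18 and 9.35, or 142% and 128% of the far flank. The single flanking maximum left in mitosis, at 251, was paired by order with the interphase one at 192. On the Esrrb motif, each state had 1 broad hump, highest at 28 in interphase and at 22 in mitosis, with 2 and 1 maxima in all. Unlike at bookmarked motifs, no minimum lay on the Esrrb motif in either state in this smoothed curve. Other digestions varied on this motif. At 16 in interphase there was no central maximum, and the first flanking ones lay at -84 and 78. In MNase-H3 at 0.5 neither state had a central maximum, with the first flanking ones at -94 and 96 in mitosis. At 16 in mitosis and at 128 in both states a central maximum was present. How the authors smoothed the curves is not given in the sources used here, and its part in the missing maxima was not tested. A running mean of the values per base had 7 maxima in interphase and 6 in mitosis on the Esrrb motif, and 7 in mitosis on the summit. Among its prominent maxima, the one nearest to the Esrrb motif lay at 37 in interphase and at 68 in mitosis.

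Transcription start sites had a deep trough in both states. The lowest point was 2.36 at position 23 in interphase and 3.25 at -9 in mitosis, which is 41.5% and 45.9% of the far upstream level. The maximum next to it upstream, at the place of the -1 nucleosome, lay at -219 in interphase and at -233 in mitosis. It stood at 101% of the far flank in interphase and at 84.3% in mitosis, where it was a shoulder on the upstream wall. The maximum downstream, at the place of the +1 nucleosome, was at 127 in interphase and at 125 in mitosis, with levels of 3.64 and 4.10. It stood at 64.7% and 57.7% of the far flank.

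Heights above the neighbouring minima were 20.9% for the downstream maximum in interphase and 8.38% in mitosis. Of 9 heights compared at start sites, 1 was taller in mitosis in percent of the far flank, the fourth upstream, and 2 on the deposited scale. The ratio of mitosis to interphase went from 1.05 at -215, on the upstream maximum, to 1.48 at 229, in the trough after the downstream one. Measured where the curve crosses the level midway between its lowest point and the far upstream level, the trough reached from -152 to 309 in interphase and from -160 to 397 in mitosis. The downstream edge falls between maxima of the wave, and so depends on their height. In mitosis the maximum at 343 reached 5.151, just under the midway level of 5.160, so the edge fell beyond it. In interphase the matching maximum at 336 reached 4.24, above its midway level of 4.02. Across positions the start site curves had r = 0.974, and 0.969 within 500 bp.

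To set the waves of all sets on one scale, a cosine with a period of 150 to 230 bp was fitted to the values per base from 100 bp outward, after removal of a smooth trend. This measure was added after the profiles had been seen. Its amplitude was lower in mitosis at 6 of the 7 sets and higher at 1, the bookmarked Esrrb motifs. There it was 4.19% of the far flank in interphase and 6.47% in mitosis. The best period there hardly differed, at 184 bp and 183 bp. Each profile was fitted at its own best period. In interphase and mitosis it was 191 and 181 bp at start sites, 177 bp in both at EP300 summits, and 185 and 183 bp at Oct4/Sox2 sites. At lost Esrrb sites it was 182 and 176 bp on the Esrrb motif, 183 and 181 bp on the Oct4/Sox2 motif, and 181 and 197 bp on the summit.

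Oct4/Sox2 sites went from 5.72% to 2.42%, transcription start sites from 5.88% to 3.16%, and EP300 summits from 3.01% to 1.84%. At lost Esrrb sites the amplitude was 3.11% and 1.42% on the Oct4/Sox2 motif, 1.81% and 0.586% on the summit, and 1.22% and 0.781% on the Esrrb motif. On that Esrrb motif the left and right sides of the interphase profile gave 0.845% and 1.60%, wider apart than the 2 states. In mitosis, then, the bookmarked motifs had the highest amplitude of the 7 sets, whereas in interphase start sites and Oct4/Sox2 sites were above them.

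The bookmarked motifs had the higher mitotic amplitude in the other digestions as well: 4.14% against 7.36% at 16, 3.38% against 7.21% at 128, and 3.73% against 6.47% in MNase-H3 at 0.5. Of the other sets, lost Esrrb motifs were higher in mitosis at 16 and in MNase-H3, and EP300 summits at 128, so 5 sets were lower and 2 higher in each of these 3. At Oct4/Sox2 sites the amplitude was lower in mitosis at 16 (6.34% to 2.13%) and at 128 (5.46% to 2.10%) too. These digestions are separate libraries of the same 2 states, and the differences between them were not tested.

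**Figure D5:**
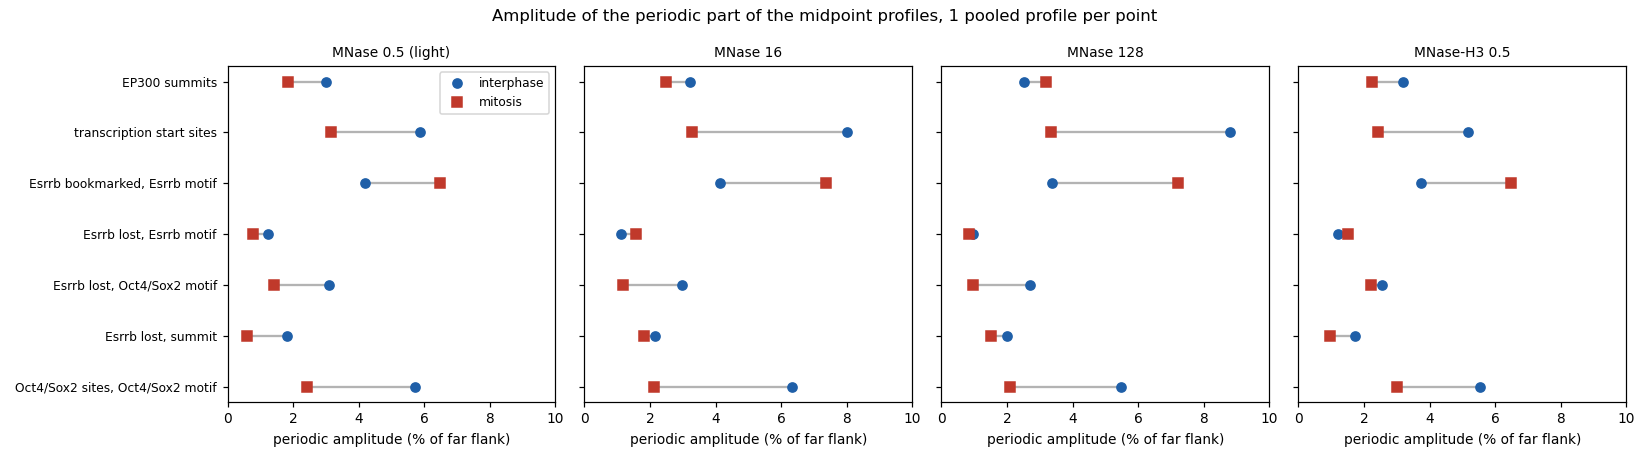
Amplitude of the fitted wave in percent of the far flank, for each of the 7 sets (rows) in the light digestion, at 16, at 128 and in MNase-H3 at 0.5 (panels). Circles are interphase, squares mitosis, each from 1 pooled profile. In the light panel the square lies to the right of the circle only at bookmarked Esrrb motifs, 6.47% against 4.19%.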

How the data were processed

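MNase-seq profiles of 6 libraries, 3 in interphase and 3 in mitosis, were analysed. The authors deposited them as a signal around each set of sites, pooled over the libraries of a state, as a smoothed curve and as fragment midpoints per base over 2001 positions. How the signal was scaled, which fragment lengths were kept and how the curve was smoothed are not given in the sources used here. The submitters' processing notes name Bowtie2, MACS2, RSEM, STAR and mm9, without versions or roles. Other tables and libraries of the series were not used here, except MNase at 16 and 128 and MNase-H3 at 0.5 for comparison.

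Values were multiplied by 10000. The centre is within 50 bp, the flanks 100 to 250 bp, the far flank 800 to 1000 bp. Maxima are local maxima of the smoothed curve. Maxima beyond 60 bp were matched by side and order. The periodic fit removed a trend of degree 3 and used numpy 2.4.6. The periodic fit was tested on simulated profiles with noise, and spacing and shift on simulated curves without noise. Amplitudes as small as those at lost Esrrb motifs were not checked in this way, nor were heights of maxima or the width of the trough. Named positions are those of maxima, minima and extreme ratios, and no gene is named. The sets and measures were chosen with earlier results of these data known. Alternatives covered windows, flanks, scale, smoothing and maxima. The running mean, 51 bp applied 3 times, was set after a first version had been seen to fail.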

Additional observations from a re-analysis of the deposited data

How the results depend on the processing

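No paired analysis was possible because the profiles are pooled over the libraries of a state. For the same reason no library could be left out, so neither that nor a replicate block was run. With no replicate spread, a level was taken as unchanged within 1 SD of the positional scatter, a spacing within the SD of its distances, a correlation within 0.1, and a count or an amplitude within 1.5 times. No depth is known, so its limit cannot be given. The cause of the changes below was not tested.

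The difference of the central level, mitosis minus interphase, kept its sign with values per base and with windows of 25 and 75 bp at all 7 sets. After subtracting the far flank it was -0.217 at EP300 summits, -0.656 at start sites, -0.216 at bookmarked Esrrb motifs, 0.131 at lost Esrrb motifs, -0.149 at lost Oct4/Sox2 motifs, -0.205 at lost summits and -0.419 at Oct4/Sox2 sites. After dividing by it (times the interphase far flank) it was -0.276, 0.125, -0.330, -0.170, -0.504, -0.615 and -0.843 in the same order. The far flank difference was unchanged with 900 to 1000 bp.

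The centre minus the flanks turned to -0.0834 with the 25 bp window at bookmarked motifs in mitosis, and was 0.502 with the 75 bp window at Oct4/Sox2 sites in interphase. With flanks of 250 to 500 bp, the interphase and mitotic values were -2.28 and -2.62 at start sites, 0.863 and 0.954 at lost Esrrb motifs, 1.37 and 1.17 at lost Oct4/Sox2 motifs, and 1.70 and 1.09 at Oct4/Sox2 sites. In interphase this was -0.0833 at EP300 summits and 1.65 at lost summits. At start sites the upstream flank alone gave -2.07 and -1.95, the downstream flank alone -0.566 and -0.610.

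Pearson's r at EP300 summits was 0.561 within 500 bp and 0.408 with values per base. Values per base gave 0.480 at bookmarked motifs, 0.691, 0.748 and 0.753 at the Esrrb motif, Oct4/Sox2 motif and summit of lost sites, and 0.729 at Oct4/Sox2 sites.

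Only maxima with a prominence of at least the curve's range divided by 10 left 6 at EP300 summits in interphase, 4 and 0 at start sites in interphase and mitosis, 1 at lost Esrrb motifs in interphase, 5 and 2 at lost Oct4/Sox2 motifs, 3 and 1 at lost summits, and 7 and 5 at Oct4/Sox2 sites. The spacing in interphase was then 383.5 bp at start sites and 190 bp at lost Oct4/Sox2 motifs. The running mean was first run at 75 bp in 1 pass, which gave 245 to 461 maxima per profile, 3 to 5 bp apart. The version used, 51 bp in 3 passes, was chosen after seeing that. It gave 7 and 6 maxima at lost Esrrb motifs, 7 at lost summits in mitosis, and a spacing of 142.5 bp at lost Oct4/Sox2 motifs in interphase. Its first flanking maxima at EP300 summits were 353 bp apart in interphase and 291 bp in mitosis.

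The amplitude difference, whose alternatives were chosen after seeing the data, kept its sign at all 7 sets in each. Fitted from 250 bp outward it was -0.421 percentage points at EP300 summits, -1.70 at start sites, -0.248 at lost Esrrb motifs, -1.10 at lost Oct4/Sox2 motifs, -0.649 at lost summits and -1.66 at Oct4/Sox2 sites. With both amplitudes over the interphase far flank it was -0.730 at EP300 summits, 4.29 at bookmarked motifs and -0.244 at lost Esrrb motifs. From the smoothed curve it was -0.166 at lost Esrrb motifs.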
